A study of Mus musculus with 6 samples.

Results

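The clustered protocadherins are cell-surface proteins of the cadherin superfamily, encoded by 3 neighbouring gene clusters, alpha, beta and gamma. Their genes were taken from the deposited read-count table by symbol (Pcdha, Pcdhac, Pcdhb, Pcdhga, Pcdhgb or Pcdhgc followed by a number). The rule found 58 of the 45777 genes in the table: 14 in the alpha cluster, 22 in the beta cluster and 22 in the gamma cluster. RNA came from the striatum of outbred ICR mice aged 6 weeks, compared by what their sires had received. The methylphenidate-sired group (3 libraries) had sires given 15 mg/kg methylphenidate, a blocker of dopamine and noradrenaline reuptake, by subcutaneous injection for 21 days. The saline-sired group (3 libraries) had sires given 10 mL/kg saline in the same way. Sires were 6 weeks old and dams were untreated. The labels give 2 females and 1 male in each group, but the table's columns are not tied to single animals. The sources used here do not give how many sires or litters stood behind each group, so littermates may count as replicates, and each p-value covers no more than the spread among these 6 libraries.

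A neuron chooses a few of these genes from a long row of promoters, and the proteins bind themselves on neighbouring membranes, which lets branches of a neuron recognise and avoid each other. The choice among the alternate promoters is made in single cells by the DNA-binding protein CTCF and the cohesin ring, which loop a distal enhancer to a promoter. The last genes of the alpha and gamma clusters, called C-type, lie apart from this choice and are read more evenly across neurons. Each alpha or gamma gene joins its own large first exon, which encodes the extracellular and transmembrane parts, to constant exons that encode a shared cytoplasmic tail. Beta genes stand alone and lack that tail.

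All members lie on the plus strand of chromosome 18 (build mm10, GRCm38). The alpha genes span 36930285 to 37188897, the beta genes 37264998 to 37521419 and the gamma genes 37661775 to 37841873. Alpha transcripts share 2860 nt of constant exons, which make up 48.6% to 54.9% of each transcript. Gamma transcripts share 2116 nt, or 41.7% to 45.9%, while all 22 beta genes had a single exon and shared none. These shares are of GENCODE transcripts. The RefSeq span of Pcdhgb8, the gene at 45.9%, ends at 37840489, before those of the other gamma members. Its model was 3234 nt there, against 4615 nt in GENCODE. Reads from constant exons cannot be placed with a member by sequence alone, and the sources used here do not give how the authors shared them out. The level of an alpha or gamma gene therefore carries an unknown share of reads assigned from its neighbours. Inside the variable exons, 3 pairs held stretches of near-identical sequence (at least 95% identity over at least 200 nt). These were Pcdha2 and Pcdha5 (97.6% over 332 nt), Pcdha6 and Pcdha7 (97.2% over 326 nt), and Pcdha11 and Pcdha12 (95% over 360 nt). The split of reads within each pair is uncertain. Identity was taken over each whole alignment, so a near-identical stretch inside a longer, less similar alignment was not counted. First exons of 13 members, Pcdhgc3, Pcdha6, Pcdha11 and Pcdha12 among them, overlap an annotated gene on the opposite strand, and the sources used here do not give whether the libraries were stranded. The constant exons of all 22 gamma members also overlap other annotated genes on the same strand. So do the first exons of Pcdha4 (Gm42416, 2410 nt), Pcdha7 (Gm37388, 338 nt) and Pcdha6 (Gm37013, 222 nt). Among these genes, Gm37013 was counted 88, 53 and 9 times in saline-sired and 0, 93 and 89 times in methylphenidate-sired libraries. Levels of the others are not analysed here.

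Values below are CPM, a gene's reads relative to all reads of its library, with library sizes scaled by edgeR's TMM method. They are listed for saline-sired libraries 3, 4 and 5 and then for methylphenidate-sired libraries 2, 4 and 6, as the columns are numbered. Total counts ran from 31360042 to 38844724 per library, and the 58 genes held 0.104% to 0.119% of them. All 58 passed the filter on low counts that left 17874 genes to test. Striatal identity was checked with fixed marker lists: the summed level of 8 medium spiny neuron markers was 5849 to 6355 CPM in saline-sired and 5028 to 5489 CPM in methylphenidate-sired libraries. Cortical excitatory neuron markers (6 genes) summed to 569, 314 and 729 CPM in the saline-sired group and to 895, 947 and 1052 CPM in the methylphenidate-sired group. Choroid plexus markers (6 genes) summed to 2060, 358 and 29.8 CPM against 36.2, 83.4 and 53.6 CPM. Ependyma markers (4 genes) summed to 7.79 to 15.7 CPM in saline-sired and 6.45 to 7.57 CPM in methylphenidate-sired libraries, and oligodendrocyte markers (5 genes) to 6705 to 12561 and 6786 to 9267 CPM. Sums over all 6 libraries lay for astrocytes between 731 and 896, for microglia between 199 and 237 and for endothelium between 143 and 180. No marker of any list was at 0 in a library. In bulk tissue, a change in the number of cells that express a gene and a change in RNA per cell cannot be told apart.

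The C-type genes of the gamma cluster stood at the top of the family. Divided by transcript length, Pcdhgc5 averaged 47.8 ± 3.38 CPM per kb (SD, n = 6 libraries) and Pcdhgc3 averaged 28.6 ± 1.71. They were followed by Pcdhac2, the last alpha gene, at 12.6 ± 0.87 CPM per kb. Pcdhga9 averaged 12.3 ± 2.91 and did not differ from Pcdhac2 beyond its spread. It is named after its values were seen, as is Pcdhga11, which came next at 7.76 ± 0.947 CPM per kb. The remaining C-type genes were not high: Pcdhgc4 averaged 3.05 ± 0.676 and Pcdhac1 1.25 ± 0.264 CPM per kb. So the C-type label, which marks position and promoter structure, covered both the highest genes of the locus and ordinary ones.

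Among the genes with alternate promoters, the gamma A and B genes had the highest typical level. Their median was 4.22 CPM per kb, against 2.21 for beta and 1.43 for alternate alpha genes. Range also differed: levels spread 7.32-fold among the 19 gamma A and B genes, 28.7-fold among the 22 beta genes and 31.3-fold among the 12 alternate alpha genes. Pcdha12, the last alternate alpha gene, was the highest of its kind at 3.11 ± 0.667 CPM per kb. Pcdha8 was the lowest member of all at 0.0993 ± 0.0481. In the beta cluster, Pcdhb17 (5.26 ± 0.453) and Pcdhb20 (4.43 ± 0.364) led, and Pcdhb1, at the upstream end of the row, was lowest at 0.184 ± 0.115. The lowest gamma gene was Pcdhgb8 at 1.69 ± 1.61, a transcribed pseudogene in the deposited table and a polymorphic pseudogene in GENCODE. Whether genes further downstream were higher was not tested. Spearman's rho between order and level was low, at 0.336 over alternate alpha, 0.264 over beta and 0.404 over gamma A and B genes. These are descriptions across genes of the same 6 libraries, and alpha and gamma genes share exons.

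**Figure D1:**
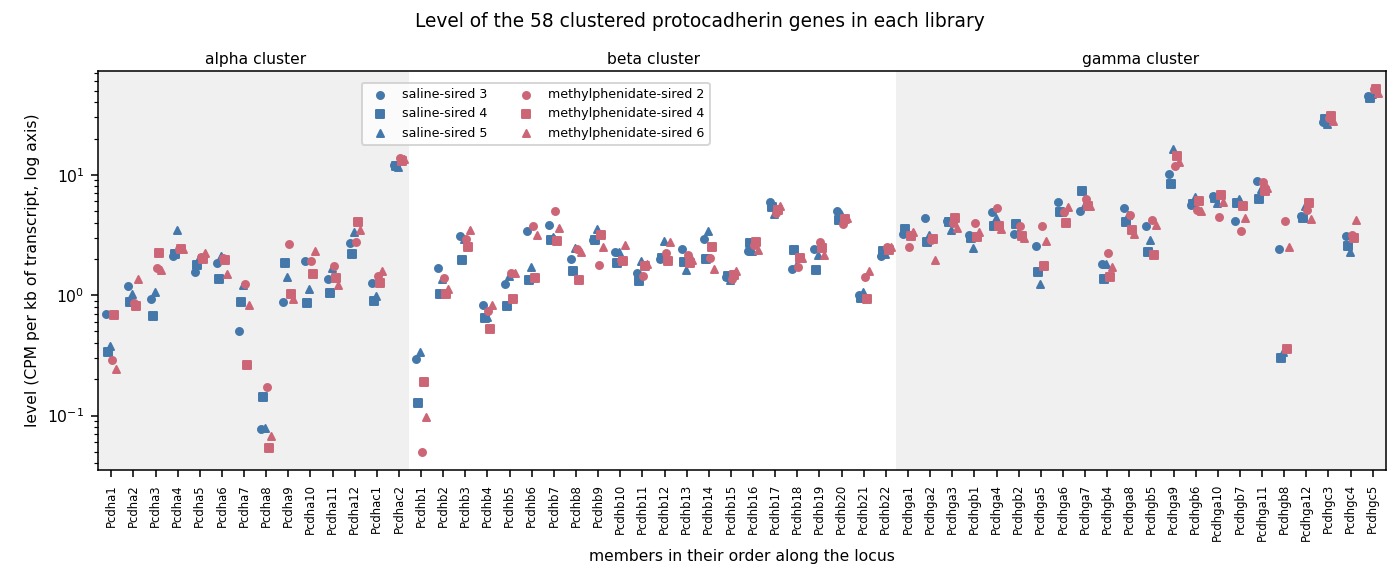
Level of each of the 58 genes in CPM per kb of transcript (log axis), in chromosomal order within the alpha, beta and gamma clusters, with a point for each of the 6 libraries. Pcdhgc5, Pcdhgc3 and Pcdhac2 sit at the ends of their clusters and well above most of the row, and Pcdha8 and Pcdhb1 are the lowest.

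The comparison by sire asked whether treatment of the father was followed by different striatal expression in the offspring. No clustered protocadherin passed edgeR's quasi-likelihood test at an adjusted p of 0.05 (Benjamini-Hochberg over 17874 genes), and the lowest adjusted p was 0.362. The test called 4 of all genes, or 0.0224%. At an unadjusted p under 0.05, 5 of 58 members were higher in methylphenidate-sired libraries and 0 were lower, where 5.07% of all genes tested were higher and 3.95% lower (9.02% in either direction). They were Pcdha3 and the C-type genes Pcdhac1, Pcdhac2, Pcdhgc4 and Pcdhgc5. These counts shifted with single libraries. Leaving out saline-sired library 4 gave 2 members higher and 4 lower. Among methylphenidate-sired libraries, leaving out number 6 gave 3 higher and 0 lower, number 4 gave 7 higher and 3 lower, and number 2 gave 4 higher and 1 lower. Leaving out number 3 of the saline-sired group gave 7 higher and 1 lower, and number 5 gave 6 higher and 0 lower. Higher among all genes tested were 3.9%, 4.13% and 7.61% without saline-sired libraries 3, 4 and 5 in turn. Without methylphenidate-sired libraries 2, 4 and 6 in turn the shares were 4.99%, 4.1% and 3.22%. Across these fits 439 to 977 genes were lower, out of 18187 to 18302 tested. Fold changes were positive for 36 members and negative for 22, with a median log2 fold change of 0.06. Over all genes tested the median was -0.01, and 47% were positive. Values of the 3 libraries of each group did not overlap for 5 members, all higher in methylphenidate-sired libraries, against 7.84% of all genes higher and 7.01% lower (14.8% in either direction). DESeq2 gave an adjusted p to 56 members and called 1 of them, Pcdha3, while it called 1.25% of the genes to which it gave one. With limma-voom, 0 members and 0.0224% of all genes passed, 4 members had an unadjusted p under 0.05, and the lowest adjusted p among members was 0.373.

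**Figure D2:**
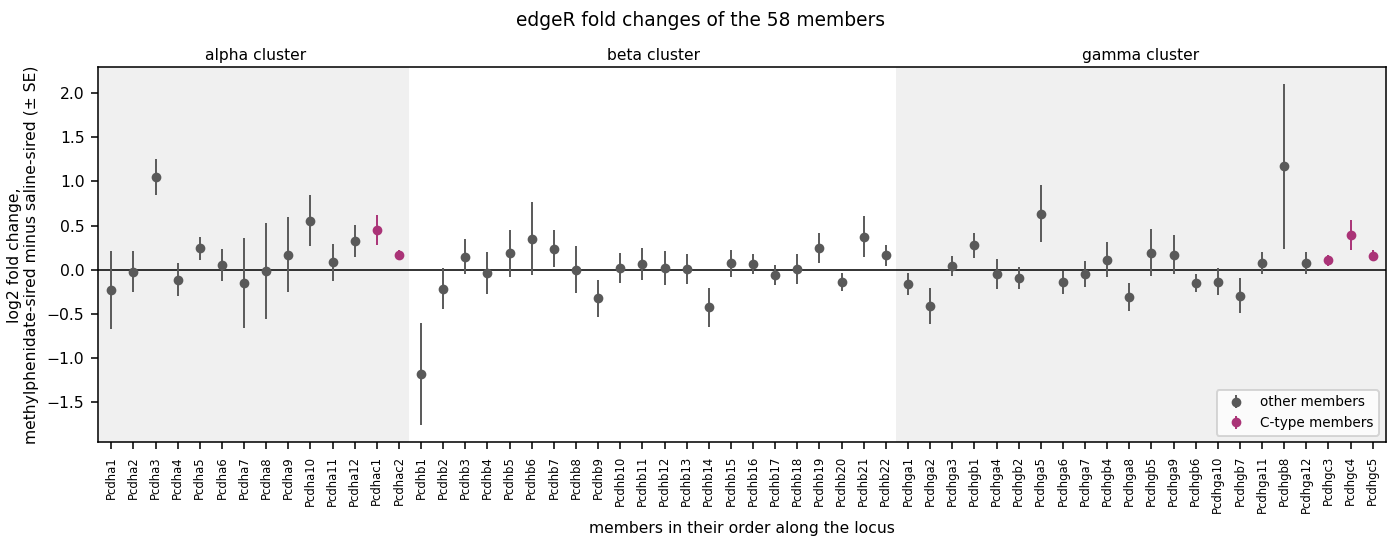
Log2 fold change (methylphenidate-sired over saline-sired, edgeR) of each member in chromosomal order, with bars of 1 standard error and the C-type genes coloured. The 5 C-type genes all lie above 0, with short bars for Pcdhac2, Pcdhgc3 and Pcdhgc5 and longer bars for Pcdhac1 and Pcdhgc4. Pcdha3 lies at 1.05, and Pcdhgb8 and Pcdhb1 have the longest bars.

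All 5 C-type genes had positive fold changes, with a median of 0.17 on the log2 scale, and 4 of them had an unadjusted p under 0.05. None passed with adjustment. Among the other 53 members, 31 were positive and 22 negative, the median was 0.02, and 1 had an unadjusted p under 0.05. The difference between C-type and other members was not tested, and the C-type genes were grouped in this way with their values known. With each library left out in turn, 3.22% to 7.61% of all genes tested were higher at an unadjusted p under 0.05. In the saline-sired group, leaving out library 4 made the 4 C-type genes into 1, library 5 into 2 and library 3 into 3. In the methylphenidate-sired group, leaving out library 2 or 6 made it 2 and library 4 made it 3. Without saline-sired libraries 3 and 4 together, the median log2 fold change of the C-type genes was 0.20. That fit leaves 1 saline-sired library and assumes that it varies like the other group.

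Pcdhac2 (gene 353237, 37143678 to 37187663), the alpha isoform through which serotonergic axons tile their target fields, had CPM of 69.1, 68.1 and 66.7 in the saline-sired group and of 78.8, 74.0 and 76.8 in the methylphenidate-sired group. All 3 methylphenidate-sired values were above all 3 saline-sired values, and the values within each group lay close together. The log2 fold change was 0.17 ± 0.06 (SE), with an unadjusted p of 0.0175 and an edgeR adjusted p of 0.47.

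Pcdhac1 (gene 353236, 37090136 to 37187657), the other alpha C-type gene, is less abundant. Its levels were 6.67, 4.77 and 5.26 against 7.67, 6.73 and 8.46 CPM. The groups did not overlap, but saline-sired library 3 and methylphenidate-sired library 4 were nearly level. The log2 fold change was 0.45 ± 0.17 (SE), with an edgeR adjusted p of 0.491.

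Pcdhgc5 (gene 93708, 37819546 to 37841873), whose protein binds GABA-A receptors at synapses, had CPM of 214, 205 and 219 in the saline-sired group and of 244, 244 and 223 in the other group. The groups did not overlap, although methylphenidate-sired library 6 was close to saline-sired library 5. Its log2 fold change was 0.16 ± 0.06 (SE), and the edgeR adjusted p was 0.509.

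Pcdhgc4 (gene 93707, 37815079 to 37841873) is the isoform needed for survival of inhibitory interneurons. It had 15.5, 12.8 and 11.4 CPM against 15.7, 15.1 and 21.3 CPM. Saline-sired library 3 lay within the methylphenidate-sired range, and methylphenidate-sired library 6 stood above all others. Its log2 fold change was 0.39 ± 0.17 (SE), with an edgeR adjusted p of 0.533, and 0.22 without that library.

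Pcdhgc3 (gene 93706, 37806410 to 37841873), which promotes dendrite branching in cortical neurons through Axin1, was the C-type gene with the smallest fold change. Levels were 129, 136 and 123 against 140, 145 and 132 CPM, so the groups overlapped. The log2 fold change was 0.11 ± 0.06 (SE), with an edgeR adjusted p of 0.658. A gene on the opposite strand lies under its first exon.

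**Figure D3:**
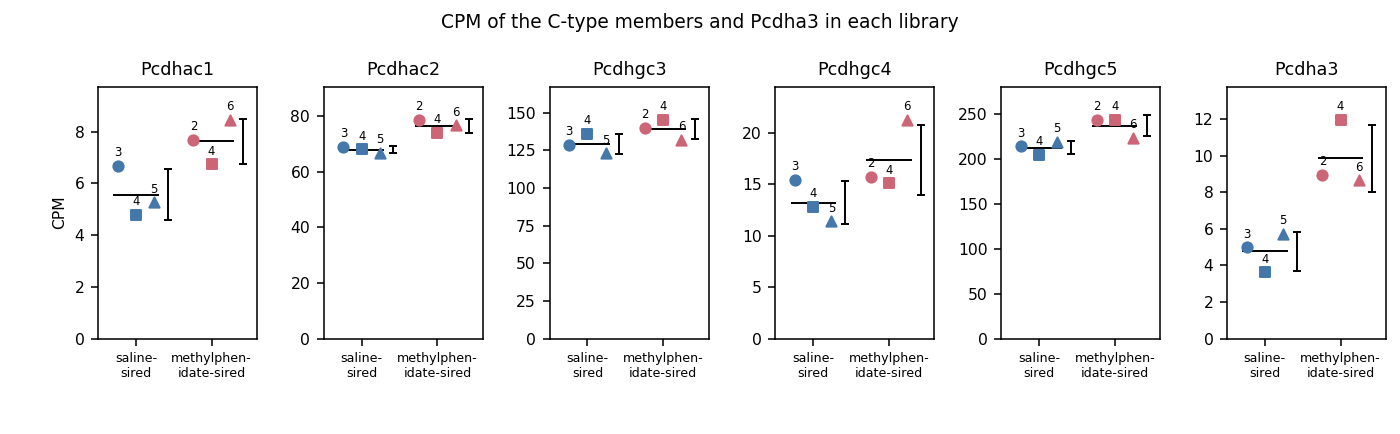
CPM (linear axes from 0) of the 5 C-type genes and Pcdha3 in each library, with points marked by library number, lines for group means and bars for SD (n = 3 per group). The groups are separate in Pcdhac1, Pcdhac2, Pcdhgc5 and Pcdha3 and overlap in Pcdhgc3 and Pcdhgc4.

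Summed over the 5 C-type genes, saline-sired libraries reached 434, 426 and 426 CPM and methylphenidate-sired libraries 486, 485 and 462 CPM. The means were 429 ± 4.74 and 478 ± 13.7 CPM (SD, n = 3), a log2 ratio of 0.16 ± 0.03 (SE) with no overlap. Pcdhgc5 and Pcdhgc3 made up most of the sum, with saline-sired means of 213 and 129 CPM. A sum over C-type genes also depends on how reads on shared constant exons were split. The sum of the alpha pair gave a log2 ratio of 0.19 and that of the gamma trio 0.15. Cortical neuron markers were also higher in the methylphenidate-sired libraries, positive for 6 of 6 genes with a median log2 fold change of 0.91, and medium spiny neuron markers were negative for 8 of 8 with a median of -0.21. Choroid plexus markers were negative for 6 of 6, with a median of -3.47, ependyma markers for 4 of 4 (-0.84) and oligodendrocyte markers for 5 of 5 (-0.21). Cortical sums were 569, 314 and 729 CPM in saline-sired libraries 3, 4 and 5. Choroid plexus sums there were 2060, 358 and 29.8 CPM. The part of tissue makeup in the difference between groups was not tested.

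Pcdha3 (gene 192163, 36946088 to 37187663), an alternate alpha gene near the upstream end of its row, had the lowest p of the family. Its saline-sired libraries had 4.98, 3.61 and 5.71 CPM and its methylphenidate-sired libraries 8.95, 12.0 and 8.64 CPM. The groups were well apart, with means of 4.77 ± 1.07 and 9.85 ± 1.83 CPM (SD, n = 3). The log2 fold change was 1.05 ± 0.20 (SE), the unadjusted p 8.044e-04 and the edgeR adjusted p 0.362. DESeq2 gave the same log2 fold change of 1.05 with an adjusted p of 0.001568, and limma-voom gave an adjusted p of 0.373.

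The remaining alternate alpha genes had smaller fold changes than Pcdha3. Of the 12, 7 had positive and 5 negative fold changes, with a median log2 fold change of 0.07, and Pcdha3 was the only gene of them with an unadjusted p under 0.05. Pcdha12, the highest of them, had 14.3, 11.7 and 17.6 against 14.6, 21.4 and 18.4 CPM, a log2 fold change of 0.32 ± 0.18 (SE) with overlapping groups. Pcdha7 had the widest spread within groups, at 2.67, 4.71 and 6.51 against 6.64, 1.41 and 4.44 CPM. Its highest and lowest values both came from the methylphenidate-sired group, and its log2 fold change was -0.15 ± 0.51 (SE). Pcdha7 shares a near-identical stretch with Pcdha6, and its first exon overlaps Gm37388 on the same strand. Pcdha8 was represented by 16, 24 and 13 reads against 30, 9 and 12 reads, too few to resolve a difference (log2 fold change -0.01 ± 0.54, SE).

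In the beta cluster fold changes were small at the median, 0.02 on the log2 scale. They were positive for 15 of 22 genes and negative for 7, and 0 had an unadjusted p under 0.05. Pcdhb1 (gene 93872), the outlying gene at the upstream end, had the lowest p of the cluster. It was counted 29, 10 and 26 times in saline-sired and 4, 15 and 8 times in methylphenidate-sired libraries, so the groups overlapped at this depth (log2 fold change -1.18 ± 0.58, SE; unadjusted p 0.0756; edgeR adjusted p 0.593). Pcdhb14 had 9.99, 6.91 and 11.8 against 7.06, 8.61 and 5.71 CPM, a log2 fold change of -0.43 ± 0.22 (SE). Pcdhb21 had 2.72, 2.58 and 2.89 against 3.81, 2.504 and 4.29 CPM, a log2 fold change of 0.37 ± 0.23 (SE). The groups overlapped in both genes.

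The 2 beta genes highest by level per length had fold changes near 0. Pcdhb17 had 19.4, 17.7 and 15.5 against 15.8, 16.7 and 18.1 CPM, and Pcdhb20 had 16.9, 14.4 and 15.97 against 13.4, 14.7 and 15.0 CPM. Their log2 fold changes were -0.06 ± 0.11 and -0.14 ± 0.10 (SE). Pcdhb22, named after its values were seen, was the beta gene whose groups did not overlap, with 6.47, 7.16 and 6.70 against 7.76, 7.29 and 7.69 CPM. Its log2 fold change was 0.16 ± 0.12 (SE), with an edgeR adjusted p of 0.722.

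Gamma A and B genes differed little between groups as a set. Of 12 gamma A genes 5 were positive and 7 negative, with a median log2 fold change of -0.05, and of 7 gamma B genes 4 were positive and 3 negative, with a median of 0.11. None had an unadjusted p under 0.05. Pcdhgb1 had the lowest p of these 19 genes, at 14.7, 13.9 and 11.6 against 18.8, 14.2 and 15.8 CPM. Saline-sired library 3 lay above methylphenidate-sired library 4, and the log2 fold change was 0.27 ± 0.14 (SE; edgeR adjusted p = 0.596). Pcdhga9, the most abundant of the 19, had 47.5, 39.4 and 77.4 against 56.0, 68.1 and 60.7 CPM, with saline-sired library 5 the highest and library 4 the lowest of all 6.

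Summing each cluster gave the output of the locus. Alpha genes summed to 162, 150 and 175 against 195, 181 and 184 CPM, a log2 ratio of 0.20 ± 0.07 (SE) with no overlap. That ratio was 0.09 against the single saline-sired library left without libraries 3 and 4, those with the highest choroid plexus and the lowest cortical marker sums. Beta genes summed to 182, 153 and 172 against 178, 161 and 179 CPM, a log2 ratio of 0.03 ± 0.09 (SE) with overlap. Gamma genes summed to 778, 730 and 775 against 824, 805 and 769 CPM, a log2 ratio of 0.07 ± 0.04 (SE), also with overlap. Within the gamma cluster the A and B genes averaged 406 CPM in both groups, with a log2 ratio of 4e-04 ± 0.06 (SE). Alternate alpha genes went from 88.9 ± 13.3 to 102 ± 5.07 CPM (SD, n = 3) with overlapping values.

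C-type genes held 41.1% to 48.6% of alpha CPM and 45.6% to 48.4% of gamma CPM in saline-sired libraries. The shares in methylphenidate-sired libraries were 44.4% to 46.3% of alpha and 48.5% to 50.3% of gamma CPM. The gamma shares did not overlap between groups, but only just, and the alpha shares did. If each read on shared constant exons was assigned once, cluster totals do not depend on its split within a cluster, while these shares do.

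Spread between libraries of the same group was wider than usual for genes of their abundance in most members other than the C-type and beta genes. The gene-wise biological coefficient of variation, edgeR's measure of spread beyond counting error, lay above the trend for genes of that abundance in 35 of 58 members (60.3%), against 25.1% of all genes tested. By kind, this held for 11 of 12 alternate alpha genes, 10 of 12 gamma A genes, 4 of 7 gamma B genes, 9 of 22 beta genes and 1 of 5 C-type genes. The median SD within groups on the log2 scale was 0.27 over members and 0.16 over all genes tested, and it was 0.07 over C-type genes. Yet few members had a wide range: the highest library was at least 2-fold above the lowest in 12 members (20.7%), 6 of them alternate alpha genes, against 22.7% of all genes tested. The lists differ in abundance and in shared exons, and the differences between these shares were not tested.

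Pcdhgb8 (gene 93705, 37761801 to 37840489) had the largest spread in the family. It was counted 313, 31 and 34 times in saline-sired libraries and 442, 37 and 275 times in methylphenidate-sired libraries. These are 7.88, 0.973 and 1.09 against 13.5, 1.16 and 8.14 CPM, a 13.8-fold range. Saline-sired library 3 and methylphenidate-sired libraries 2 and 6 formed a high set, and the lowest of these was 6.80-fold above the highest of the other libraries. Its biological coefficient of variation was 0.765 where the trend gave 0.203. Both groups held high and low libraries, so the log2 fold change, 1.17 ± 0.93 (SE) with an unadjusted p of 0.243 and an edgeR adjusted p of 0.74, depended on which were included: it was 2.87 without saline-sired library 3 and 0.49 without methylphenidate-sired library 2.

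The same 3 libraries were the highest or the lowest in other members, an order looked for after Pcdhgb8 had been seen. They were the 3 highest in 11 of 58 members, Pcdhgb8 included, and the 3 lowest in 3, together 24.1%. Of all genes tested they were highest in 3.97% and lowest in 3.59%, together 7.56%. By cluster these were 1 of 14 alpha, 5 of 22 beta and 8 of 22 gamma genes, and 5 of the 7 gamma B genes. The gap to the rest was 1.005-fold to 1.04-fold in Pcdhb9, Pcdhgb6, Pcdhgc4, Pcdhga11, Pcdhgb1 and Pcdhb13. These near ties are named after their values were seen. A gap of at least 1.5-fold between the 3 and the rest was found in Pcdhgb8, from which the order was taken, and otherwise only in Pcdhb6. Of all genes tested, 0.162% had such a gap with the 3 highest. Members that share constant exons may not be independent of each other in this order. The genes described next were chosen after their values were seen.

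Pcdhb6 (gene 93877, 37333860 to 37337438) is a single-exon beta gene, and none of its alignments to another member reached the limits for near identity. It had 12.2, 4.80 and 6.13 against 13.4, 5.01 and 11.2 CPM, a gap of 1.83-fold. Pcdhga5 had 11.9, 7.25 and 5.77 against 17.5, 8.08 and 13.2 CPM, with a gap of 1.47-fold. Pcdhgb5 had 17.8, 10.7 and 13.5 against 19.97, 10.2 and 18.1 CPM, with a gap of 1.32-fold. In all 3 genes each group was split in the way seen for Pcdhgb8. Pcdha10 was the alpha gene with this order, at 10.1, 4.49 and 5.90 against 10.1, 7.86 and 12.2 CPM. Pcdhgb7 showed the opposite order, at 19.5, 27.4 and 29.4 against 16.01, 25.8 and 20.5 CPM.

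Among 13 tested protein-coding genes that flank or lie between the clusters, 1 had the order (Rell2), a share near that of all genes tested. The widest range among the 13 was 2.08-fold. Genes taken as read-throughs of the locus were not among the 13. Of the tested ones, Gm38667 had the order, with 127, 28 and 23 against 88, 0 and 53 reads, and Gm37013 did not. Taf7, which sits between the beta and gamma clusters, had 8.68, 8.85 and 8.50 against 8.89, 8.80 and 7.96 CPM. The 3 libraries also had the 3 largest total counts. ICR mice are outbred, genotypes at the locus were not measured here, and the part of genotype, of relatedness within litters or of depth in this order was not tested.

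**Figure D4:**
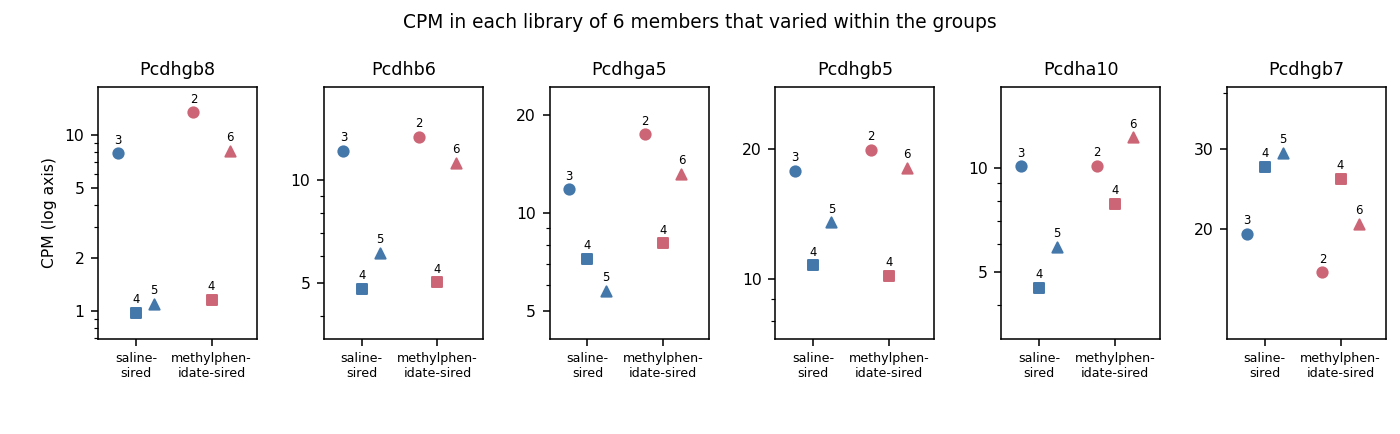
CPM (log axes) of Pcdhgb8, Pcdhb6, Pcdhga5, Pcdhgb5, Pcdha10 and Pcdhgb7 in each library, with points marked by library number. Saline-sired library 3 and methylphenidate-sired libraries 2 and 6 are highest in the first 5 of these genes and lowest in Pcdhgb7, with the widest gap (6.80-fold) in Pcdhgb8.

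**Figure D5:**
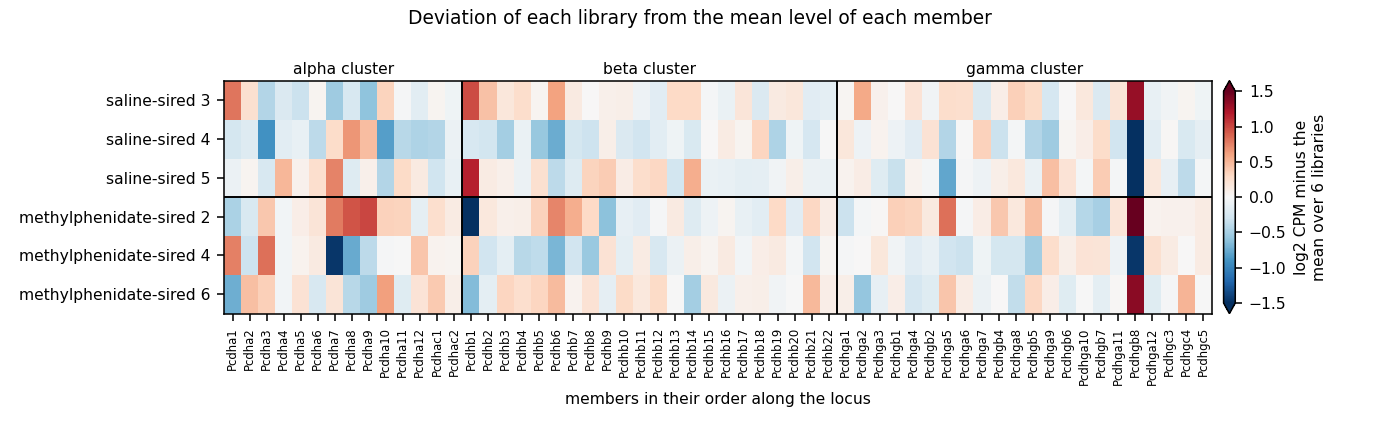
Log2 CPM of each member in each library minus its mean over the 6 libraries, in chromosomal order, with colours limited at 1.5 in either direction. The C-type columns are pale and Pcdhgb8, Pcdhb1 and several alternate alpha columns are strongly coloured in both groups.

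Genes that act on or with the clustered protocadherins were followed from fixed lists. None of these genes passed edgeR's test. For CTCF and cohesin, which set promoter choice, 6 of 11 genes had positive and 5 negative fold changes with a median log2 fold change of 0.00, and 0 had an unadjusted p under 0.05. The lowest p values belonged to Mau2, a cohesin loader subunit (log2 fold change -0.08 ± 0.06, SE), and Stag1, a cohesin subunit (-0.10 ± 0.09, SE). Ctcf itself was at 0.05 ± 0.06 (SE). Of 9 genes that silence the clusters, Smchd1 and the DNA methyltransferases among them, 5 were positive and 4 negative with a median of 0.04, and 0 had an unadjusted p under 0.05. The lowest p values there were those of Lrif1 (0.21 ± 0.10, SE), a partner of Smchd1, and Dnmt3b (-0.61 ± 0.37, SE), the methyltransferase that marks alternate promoters.

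Partners of the cytoplasmic tail and processing enzymes were positive in 14 of 19 genes, where 47% of all genes tested were positive. Their median log2 fold change was 0.03. Ptk2, the focal adhesion kinase that the alpha and gamma tails bind, was the single gene with an unadjusted p under 0.05 (log2 fold change 0.13 ± 0.05, SE; edgeR adjusted p = 0.524). A count of 1 in 19 is near the share of all genes tested at that p, 5.07% higher and 9.02% in either direction. Cyfip2, of the WAVE complex bound by alpha tails, followed with 0.10 ± 0.06 (SE).

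Non-clustered protocadherins are related adhesion proteins encoded by single genes outside the 3 clusters. Fold changes were positive in 9 of 11, with a log2 median of 0.18, where 47% of all genes tested were positive. By edgeR, 4 had an unadjusted p under 0.05, all higher, where 5.07% of all genes tested were higher at that p. The 4 became 2 without saline-sired library 3 or 4 or methylphenidate-sired library 6. Pcdh19, whose loss in a mosaic pattern causes epilepsy, had 16.3, 14.8 and 18.2 against 20.1, 20.3 and 21.6 CPM. Its groups did not overlap, and the fold change was 0.33 ± 0.10 on the log2 scale (SE; adjusted p = 0.457, edgeR). Pcdh1, which lies downstream of the gamma cluster, had 171, 149 and 161 against 175, 198 and 180 CPM. It too had no overlap, and its log2 fold change was 0.20 ± 0.07 (SE), with an edgeR adjusted p of 0.487. Cortical marker levels, higher in all 3 methylphenidate-sired libraries, moved with these genes as well, and their part was not tested.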

How the data were processed

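Striatal RNA of 6 offspring, 3 per group, was sequenced and mapped by the authors, who per the submitters' processing notes used bcl2fastq 2.20.0, Trimmomatic, HISAT2 2.1.0 and StringTie 2.1.3b with build mm10. The authors' deposited table gives whole-number read counts per RefSeq gene, which are not normalized. The sources used here do not give strandedness or how reads on shared exons were divided. The table's other 12 columns of per-sample values were not used. Count columns show the group but not which animal, so sex was no covariate.

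The counts of all genes were tested with edgeR 4.0.16 (R 4.3.3): filterByExpr, TMM scaling, a quasi-likelihood fit with group as the only term, and Benjamini-Hochberg adjustment over 17874 genes with a threshold of 0.05. The script was tested on simulated counts. DESeq2 1.42.0, limma-voom (limma 3.58.1), RLE scaling, no filter and leaving out each library were alternatives. Fold changes are methylphenidate-sired over saline-sired. Standard deviations on the log2 scale used a prior count of 1.

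Total counts of 31360042 to 38844724 per library set the counting precision. Exons came from GENCODE M21. For transcript lengths the outer ends were set to the RefSeq spans, which shortened some models and lengthened others. Shares of constant exons used the GENCODE transcripts as annotated. By RefSeq accession 57 members were matched, and Pcdhgb8 by symbol. Variable exons were compared with blastn 2.17.0+.

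Named in the text are the 5 C-type genes and, per cluster, members past the test, the 3 of lowest unadjusted p, the 2 highest and the 1 lowest by level per length, and the widest within-group spread. Of each related list, members past the test are named, otherwise the 2 of lowest p. Others are said to be chosen after their values were seen. Members and lists were chosen with earlier results of these data known. Sequences of the locus are not reported here.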

Additional observations from a re-analysis of the deposited data

How the results depend on the processing

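Only DESeq2 called a member, 1 against 0 with edgeR: Pcdha3, with a log2 fold change of 1.05 and an adjusted p of 0.001568. Its log2 fold change was 0.79 to 1.20 and its adjusted p 0.001568 to 0.928 over 11 alternatives. Counts at an unadjusted p, C-type results and the setting without saline-sired libraries 3 and 4 were added after seeing the data. With each library left out in turn, members higher at an unadjusted p under 0.05 numbered 2 to 7 (2 without saline-sired library 4). Members lower numbered 0 to 4 (4 without that library). C-type members higher numbered 1 to 3, and non-clustered protocadherins higher 2 to 5. Of all genes tested, 3.22% to 7.61% were higher and 439 to 977 genes were lower in these fits. Without saline-sired libraries 3 and 4, 1 saline-sired library remains and is assumed to vary like the other group. In that setting the alpha sum had a log2 ratio of 0.088 against 0.20, and the C-type sum 0.165 against 0.156. The cause was not tested, and fewer libraries entered these fits.

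Leave-one-out values were -0.64 to 0.27 for Pcdha7, -0.69 to 0.33 for Pcdha8 and -0.12 to 0.0193 for Pcdhb17, so these directions are not settled. Without saline-sired libraries 3 and 4, Pcdha8 was at 0.31 and Pcdhb17 at 0.12. The median log2 fold change left out in turn was 0.04 to 0.24 for alpha, -0.04 to 0.10 for beta, -0.01 to 0.10 for gamma and 0.17 to 0.21 for C-type members. No paired analysis was possible because the columns' numbers are not the replicate numbers of the labels. Depth limits Pcdha8 and Pcdhb1, counted at most 30 times in a library.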
